A study of Rattus norvegicus with 12 samples.

Results

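Thalamus was compared with the rostral ventral medulla (RVM) in rats labelled CFA. FPKM is fragments per kilobase of gene, scaled by a total for each library, so a level per gene length. All genes whose mean level over the 6 CFA libraries was at least 1 FPKM were compared. This rule kept 14787 of the 34525 genes listed. There were 3 thalamus and 3 RVM libraries. In pain research CFA is the short name of complete Freund's adjuvant, an emulsion that causes lasting inflammation where it is injected; the labels give no dose, site, time, strain, sex or age. The study's title concerns chronic orofacial pain, and its control rats, labelled 0.9% NS (read here as saline), gave 3 further libraries of each region. These were used as a parallel comparison, in the interaction test and in an alternative fit of all 12 libraries. RNA was total RNA taken with Trizol from tissue that the extraction text calls retinas. The labels do not say whether replicates came from separate animals, so the p-values measure the spread between these samples, which may be technical. At the edge of the rule, Anxa9 and Tm4sf4 had mean levels of 1.0010 and 1.0015 FPKM and were kept, while C1rl and Myl4, at 0.9992 and 0.9989 FPKM, were not.

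The thalamus passes touch, pain and temperature from the face and body to the cortex through large glutamatergic relay neurons, and the habenula lies on its upper edge. The RVM, in the hindbrain, holds the nucleus raphe magnus and neighbouring reticular cells. Its serotonergic, glycinergic and GABAergic neurons project to the spinal and trigeminal dorsal horn, where they raise or lower the transmission of pain. Regions that formed at different levels of the neural tube keep their transcription factors through life: Hox genes mark the hindbrain and spinal cord and are silent in forebrain.

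Defining markers matched the tissue labels in all 6 libraries. Summed levels of 6 thalamic markers were 95.5, 338 and 257 FPKM in thalamus libraries 1 to 3 and 8.14 to 13.5 FPKM in RVM. Hindbrain markers summed to 0.0729 to 0.423 FPKM in thalamus and 90.1 to 97.2 FPKM in RVM, and serotonergic markers to 0.350 to 1.17 and 52.3 to 77.4 FPKM. The summed retinal markers reached at most 0.563 FPKM in these libraries.

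Some libraries stood apart from their group. Choroid plexus markers (Ttr, Folr1, Kl and Clic6) summed to 10146, 2429 and 13.2 FPKM in thalamus libraries 1 to 3, against 1.16 to 6.02 FPKM in RVM. Thalamus CFA 1 also had the lowest sum of thalamic markers and the highest of cortical ones (249 FPKM, against 23.3 to 28.6 FPKM in thalamus CFA 2 and 3 and 18.2 to 29.8 FPKM in RVM). RVM CFA 2 had the lowest levels of many immune genes: Cd74, the chaperone of MHC class II molecules, was at 73.6 FPKM there and at 1108 and 530 FPKM in RVM CFA 1 and 3. Each CFA library held 14978698 to 19243108 reads, recovered from the steps of its FPKM values.

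Under CFA, 2206 genes (14.9%) were higher in thalamus and 2674 (18.1%) were higher in RVM, 33.0% of all genes tested (limma on log2(FPKM + 1), Benjamini-Hochberg adjusted p below 0.05). Differences below are thalamus minus RVM on that scale, where 1 is a doubling of FPKM + 1, so the changes of genes at low levels are understated. Beyond 1 on this scale were 822 genes higher in thalamus and 475 higher in RVM. Of the 14787 genes tested, 13750 reached a mean of 1 FPKM in both regions. A gene that reached it in only 1 region passed the filter through that region. The means of the regions then had to differ, here and below, whether or not the gene was called. The 3 values of each region did not overlap for 3609 genes with thalamus above RVM (24.4%) and 4040 with RVM above thalamus (27.3%). The median difference over all genes tested was -0.00. When every library was rescaled to the same FPKM total, that median moved to 0.29, and the share of calls that were higher in thalamus moved from 45.2% to 83.2%; none of the calls was then called in the opposite direction. Of the 4880 calls, 2427 (49.7%) also passed in all 6 fits without 1 library, and these are described below as held. Without RVM CFA 1 the counts were 1326 and 1580, without RVM CFA 2 they were 1346 and 1563, without RVM CFA 3 they were 1286 and 1651, and without thalamus CFA 1 and 2 together they were 1532 and 1738. In these bulk samples, fewer cells of a type and less RNA per cell cannot be told apart.

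**Figure D1:**
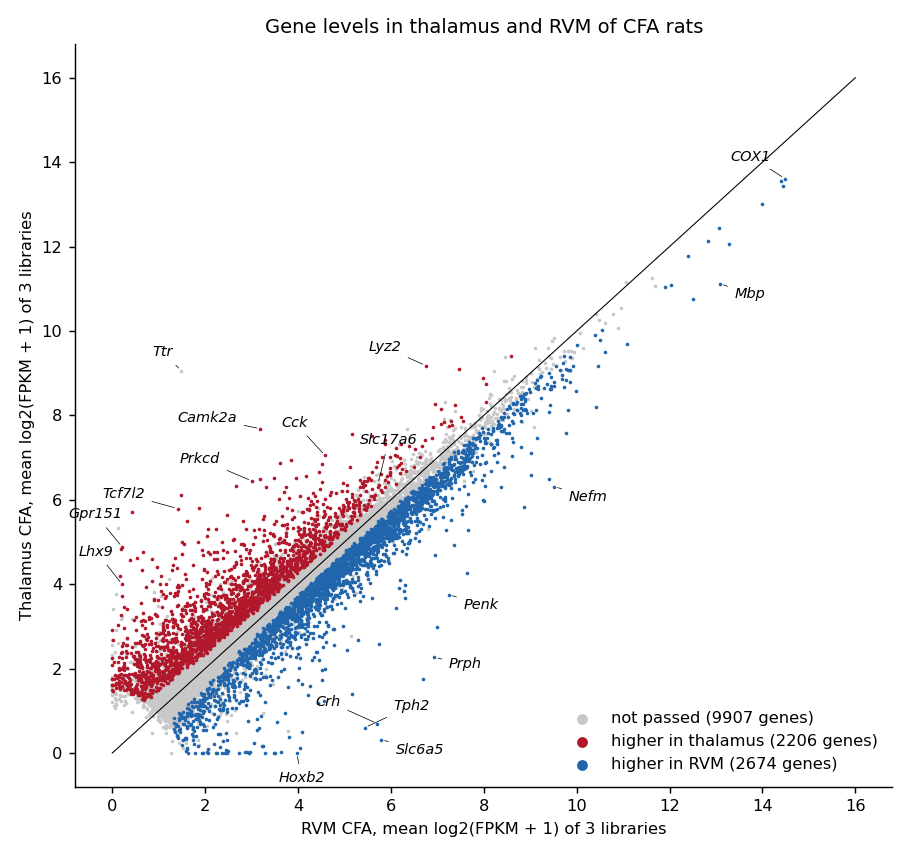
Mean log2(FPKM + 1) of each gene tested over the 3 RVM CFA libraries (x axis) and the 3 thalamus CFA libraries (y axis). Red points are the 2206 genes higher in thalamus, blue points the 2674 higher in RVM, and grey points the 9907 genes that did not pass.

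The calls with the greatest differences on the thalamic side held neuronal genes and genes of the choroid plexus, such as Folr1 (4.09) and Clic6 (3.70), which thalamus CFA 1 and 2 carried at high levels. Gpr151, a receptor of habenular neurons, was at 33.8, 30.2 and 22.4 FPKM in thalamus and at 0.119, 0.117 and 0.258 FPKM in RVM, a difference of 4.66 (SE 0.17, limma adjusted p = 8.63e-05). The groups were far apart. Camk2a, the alpha subunit of the calcium/calmodulin kinase of excitatory synapses, was higher in thalamus by 4.49 but spread there from 106 to 400 FPKM, highest in library 1. Ddn, which encodes the dendritic protein dendrin, had the greatest difference among the genes called higher in thalamus (5.29, SE 0.84), with thalamus values of 128, 90.9 and 11.1 FPKM and RVM values of 0.310 to 0.381 FPKM. Its difference was 3.17 without thalamus CFA 1 and 2 together. Yjefn3, Stum and Wipf3 followed with differences of 4.65, 3.93 and 4.10. Gpr151, Ddn, Yjefn3, Wipf3, Folr1 and Clic6 had RVM means under 1 FPKM, so they passed the filter through thalamus and had to differ.

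On the RVM side the greatest difference was that of Slc6a5, the glycine transporter GlyT2 of glycinergic terminals. It was at 0.0729, 0.302 and 0.384 FPKM in thalamus and at 53.4, 55.9 and 53.5 FPKM in RVM, a difference of -5.47 (SE 0.12, limma adjusted p = 3.09e-05) and a ratio of mean levels of 215. With a thalamus mean of 0.253 FPKM, Slc6a5 passed the filter through RVM and had to differ. Dao, which encodes the D-amino acid oxidase of hindbrain astrocytes, was at 1.42 to 1.79 FPKM in thalamus and 29.5 to 39.8 FPKM in RVM. Lamp5, a membrane protein of vesicles in GABAergic and glycinergic terminals, was at 9.52, 4.85 and 7.28 FPKM in thalamus and at 124, 130 and 123 FPKM in RVM, and no value of either gene overlapped between regions.

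Genes of thalamic neuron identity were higher in thalamus in 17 of 22 tested, none were higher in RVM, and the median difference was 2.41, beside -0.00 over all genes. All 22 reached a mean of 1 FPKM in thalamus and 18 also did in RVM, and 14 of the 17 calls held. Tcf7l2, a transcription factor of the Wnt pathway that maintains thalamic relay neurons, was at 28.9, 69.7 and 79.5 FPKM in thalamus and at 1.64, 1.31 and 2.10 FPKM in RVM (difference 4.38, SE 0.37, limma adjusted p = 0.000945). Lhx9, a LIM homeodomain factor of the developing thalamus, was at 10.5, 18.8 and 16.8 FPKM in thalamus and at 0.0855 to 0.231 FPKM in RVM (3.78, SE 0.22). Thalamus CFA 1 was lowest for both, and its values still lay above all RVM values. Lhx9 had an RVM mean of 0.161 FPKM, so it passed the filter through thalamus and had to differ.

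The homeobox gene Gbx2 of thalamic progenitors was at 6.03, 27.1 and 20.2 FPKM in thalamus and at 1.20 to 1.32 FPKM in RVM (2.85, SE 0.49). Necab1, a neuronal calcium-binding protein, was at 20.6, 77.1 and 54.2 FPKM against 1.73 to 2.54 FPKM (3.89, SE 0.45). Prkcd, the delta form of protein kinase C found in relay neurons, was at 28.6, 187 and 118 FPKM against 4.52 to 9.34 FPKM (3.44, SE 0.67). In each of these genes thalamus CFA 1 was the lowest of its group, so the spread within thalamus was wide while RVM values stayed close together. Lhx2, another LIM homeodomain factor, showed the other order, with 17.5, 15.7 and 6.49 FPKM in thalamus libraries 1 to 3, and the zinc finger genes Zic1 and Zic4 were highest in library 2. The G protein regulator gene Rgs16, the phosphatase gene Ptpn3, the actin-binding protein gene Synpo2 and the Wnt pathway factor Lef1 were higher by 3.08, 3.23, 2.63 and 2.18, and all 4 calls held. The 5 others missed the threshold: Rora (0.59), Foxp2 (0.65), Slitrk6 (0.47), Calb2 (-0.08) and Pdyn (-0.63). The counts were 20 and 1 without thalamus CFA 1.

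Habenular genes were higher in thalamus in 6 of 8, and all 6 calls held. All 8 reached a mean of 1 FPKM in thalamus and 4 did in RVM; Gpr151, Chrna3 and Chrnb4 passed the filter through thalamus and had to differ. Besides Gpr151, Chrna3 and Chrnb4, the nicotinic receptor subunits alpha3 and beta4 that habenular neurons carry in quantity, differed by 3.74 and 3.08. Chrnb4 was at 11.3, 8.71 and 6.45 FPKM in thalamus and at 0.0946 to 0.186 FPKM in RVM. Tac3, the neurokinin B precursor of habenular cells, kept here in the list of neuropeptides, was at 35.5, 24.7 and 20.7 FPKM against 2.68 to 3.69 FPKM (2.71, SE 0.21). Pou4f1, a POU factor shared by the habenula and hindbrain nuclei, was higher in RVM instead, with 11.9, 15 and 21.2 FPKM against 7.30 to 8.52 FPKM (-0.92). That call was lost without thalamus CFA 2, where the difference was -0.90, and after total rescaling (-0.61).

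All 9 Hox genes that passed the filter were higher in RVM, with a median difference of -2.95. None of the 9 reached a mean of 1 FPKM in thalamus, so they passed the filter through RVM and had to differ. Of the 30 Hox genes listed, 9 were at 0 in every CFA library and the other 12 stayed under the filter. Hoxb2 was at 0 in all 3 thalamus libraries and at 15.9, 12.6 and 15.7 FPKM in RVM. Counting 3 reads per library as the limit that a count of 0 allows, it was at least 91.7-fold higher in RVM. The same limit gave at least 127-fold for Hoxb3, 107-fold for Hoxc4, 98.5-fold for Hoxd3 and 69.1-fold for Hoxd4.

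The genes Hoxb4, Hoxb5 and Hoxd1 each had a value above 0 in 1 thalamus library, at most 0.0575 FPKM, and 6.04 to 15.8 FPKM in RVM. Hoxb6 was at least 13.2-fold higher, from 2.46, 5.08 and 2.49 FPKM in RVM and 0 in thalamus. Without RVM CFA 2 its mean fell under the filter. The 9 genes came from paralog groups 1 to 6, and 5 of them lie in the Hoxb cluster. Other members such as Hoxb8 (0.0570, 0.503 and 0 FPKM) and Hoxa2 (0.0735 to 0.133 FPKM) stayed low in RVM.

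Other hindbrain transcription factors were higher in RVM in 8 of 16 tested and in thalamus in 1, with a median of -0.67. Of the 16, 10 reached a mean of 1 FPKM in thalamus, and 4 of the 8 calls held: 4 were made without RVM CFA 1 or 3 and 5 without RVM CFA 2. Pax2, a paired-box factor of inhibitory hindbrain neurons, was at 0.0324, 0.0363 and 0 FPKM in thalamus and at 2.91, 3.15 and 3.26 FPKM in RVM (-2.0, SE 0.15). Nkx6-1, a homeodomain factor of the ventral hindbrain, differed by -2.17. Gata2 and Gata3, factors of serotonergic and some GABAergic neurons, missed the threshold at -0.49 and -0.76.

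**Figure D2:**
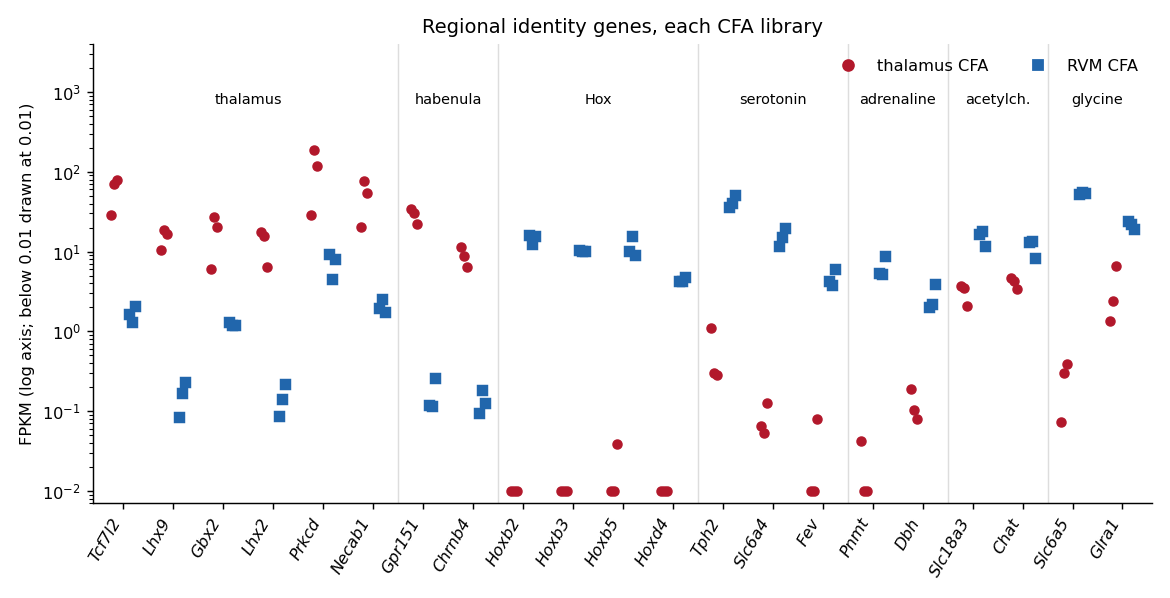
FPKM on a log axis for genes of regional and transmitter identity, with each circle a thalamus CFA library and each square an RVM CFA library. The thalamic and habenular genes sit higher in thalamus, Hoxb2, Hoxb3 and Hoxd4 lie at the drawn floor in thalamus, and the transmitter genes at the right sit higher in RVM.

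Serotonergic genes were mostly higher in RVM: 6 of 11 tested were higher in RVM, 1 was higher in thalamus, and the median was -1.25. Only 8 of the 11 reached a mean of 1 FPKM in thalamus; Tph2, Slc6a4 and Fev passed the filter through RVM and had to differ. Tph2, the enzyme that limits serotonin synthesis in neurons, was at 1.10, 0.296 and 0.280 FPKM in thalamus and at 36.3, 40.4 and 51.3 FPKM in RVM (-4.83, SE 0.23, limma adjusted p = 0.000203). Slc6a4, the serotonin transporter, was at 0.0537 to 0.128 FPKM in thalamus and at 11.8, 15.3 and 20.0 FPKM in RVM (-3.92, SE 0.19). Fev, the ETS factor that sets serotonergic fate, was at 0, 0 and 0.0801 FPKM in thalamus and at 4.28, 3.80 and 6.07 FPKM in RVM (-2.46, SE 0.19). RVM CFA 3 had the highest value of all 3 genes.

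Ddc, which decarboxylates the serotonin and dopamine precursors, differed by -2.21, and Gch1, which makes the cofactor of Tph2, by -1.25. Slc18a2, the vesicular monoamine transporter, was at 3.07, 9.46 and 2.36 FPKM in thalamus and at 16.9, 20.7 and 22.7 FPKM in RVM. Its difference of -2.0 missed the threshold without RVM CFA 3 (-1.91). Htr1a, the autoreceptor of serotonergic cells that other neurons carry too, and Maob, a monoamine oxidase, had differences of 0.26 and 0.09 and did not pass. The member higher in thalamus was Slc22a3, a low-affinity monoamine carrier (0.97), called in 2 of the 6 fits without 1 library, those without thalamus CFA 1 (1.13) and 3 (1.05).

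The promoters of Tph2, Fev, Slc6a5 and Uts2, all higher in RVM, and of Zic4, higher in thalamus, are shown as examples from genes that differed between the regions. These promoters were not drawn at random. All of them hold a match to a motif named below, so they do not show how common such matches are. Each runs 5′ to 3′ from 250 bases before to 50 bases after the gene's start, from RefSeq on GRCr8, and capitals mark every match of 4 motifs on either strand: AGATAA for GATA factors, TAATTA for homeodomain proteins, TGATNNAT for HOX-PBX and CTTTGA for TCF/LEF.
Tph2: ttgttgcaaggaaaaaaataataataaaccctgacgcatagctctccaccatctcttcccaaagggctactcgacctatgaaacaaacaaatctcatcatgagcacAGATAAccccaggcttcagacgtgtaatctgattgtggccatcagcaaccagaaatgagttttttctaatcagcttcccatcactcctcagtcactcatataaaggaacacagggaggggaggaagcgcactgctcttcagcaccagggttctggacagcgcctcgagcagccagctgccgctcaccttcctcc
Fev: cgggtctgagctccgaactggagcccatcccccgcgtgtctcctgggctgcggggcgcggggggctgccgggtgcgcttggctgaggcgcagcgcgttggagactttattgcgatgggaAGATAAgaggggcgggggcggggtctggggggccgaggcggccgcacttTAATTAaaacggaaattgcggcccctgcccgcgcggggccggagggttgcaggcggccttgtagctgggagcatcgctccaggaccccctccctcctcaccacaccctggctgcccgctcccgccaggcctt
Slc6a5: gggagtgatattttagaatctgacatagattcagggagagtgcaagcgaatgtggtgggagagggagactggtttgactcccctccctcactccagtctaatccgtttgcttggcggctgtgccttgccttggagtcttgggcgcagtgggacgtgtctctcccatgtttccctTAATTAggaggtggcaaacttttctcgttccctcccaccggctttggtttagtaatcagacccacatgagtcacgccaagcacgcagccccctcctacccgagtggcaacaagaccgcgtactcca
Uts2: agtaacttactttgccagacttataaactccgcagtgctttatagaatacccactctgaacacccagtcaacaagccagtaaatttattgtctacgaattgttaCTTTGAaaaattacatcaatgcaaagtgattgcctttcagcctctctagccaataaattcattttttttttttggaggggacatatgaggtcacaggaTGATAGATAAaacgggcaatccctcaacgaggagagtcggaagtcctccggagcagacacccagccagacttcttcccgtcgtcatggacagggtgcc
Zic4: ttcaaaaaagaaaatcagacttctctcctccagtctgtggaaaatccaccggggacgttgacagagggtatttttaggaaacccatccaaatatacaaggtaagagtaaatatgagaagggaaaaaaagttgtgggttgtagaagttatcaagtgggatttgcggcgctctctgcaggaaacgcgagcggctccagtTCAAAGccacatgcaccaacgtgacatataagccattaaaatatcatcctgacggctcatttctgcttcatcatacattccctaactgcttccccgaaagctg
They lie at chr7:52675590-52675889 on the minus strand, chr9:83891669-83891968 on the minus strand, chr1:108781303-108781602 on the plus strand, chr5:166733421-166733720 on the plus strand and chr8:100795852-100796151 on the plus strand. The HOX-PBX and GATA matches in Uts2 overlap, and it holds a TCF/LEF match as well.

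Such matches are common, and they are a description of letters, not of binding. Of all 27457 RefSeq promoters of this length, 11.3% held the GATA letters, 5.35% the homeodomain letters, 8.82% the HOX-PBX letters and 15.9% the TCF/LEF letters. A promoter was matched by symbol for 9997 of the 14787 tested genes, and the 4 shares there were 5.78%, 1.9%, 3.91% and 11.4%. Among matched genes higher in RVM by more than 1, 30 of 291 held GATA letters (10.3%) and 18 held HOX-PBX letters (6.19%). Among those higher in thalamus by more than 1, the shares were 5.38% and 3.85% of 520. The TCF/LEF letters stood in 10.2% and 10.3% of the thalamus and RVM sets, and the homeodomain letters in 2.12% and 2.75%. Also counted were CAGCTG, an E-box of bHLH factors, and TGACGTCA, the cAMP response element. The E-box stood in 18.1% and 21% of the sets, beside 16.2% of matched genes. TGACGTCA stood in 2.12% and 3.44%, beside 3.09%. Median GC content of the promoters was 62.5% for thalamus calls beyond 1, 61.3% for RVM calls beyond 1 and 61.3% for all matched genes. It was 63.7% for all calls higher in thalamus and 60.3% for all those higher in RVM. The part of base composition in the motif shares was not tested.

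The genes of noradrenergic and adrenergic neurons were higher in RVM in all 6 tested, with a median of -1.66. Only 3 of the 6 reached a mean of 1 FPKM in thalamus, so members such as Pnmt and Dbh passed the filter through RVM and had to differ. Of the 6 calls, 3 held. Pnmt, the enzyme that makes adrenaline and that marks the C1 cells of the ventral medulla, was at 0.0419, 0 and 0 FPKM in thalamus and at 5.35, 5.20 and 8.85 FPKM in RVM (-2.85, SE 0.21). Th, the first enzyme of catecholamine synthesis, was at 0.894, 1.67 and 1.74 FPKM against 4.40, 4.99 and 6.73 FPKM (-1.39, SE 0.21), and Maoa, a monoamine oxidase, differed by -0.50 (-0.16 and not called after total rescaling). Dbh, which makes noradrenaline, was at 0.0801 to 0.187 FPKM in thalamus and at 1.99, 2.20 and 3.94 FPKM in RVM (-1.69). Without RVM CFA 3, its mean and that of 1 other member fell under the filter, Slc18a2 missed the threshold, and 3 members were called.

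Cholinergic and motor neuron genes were higher in RVM in 9 of 10, of which 8 held, with a median of -2.42. Only 6 of the 10 reached a mean of 1 FPKM in thalamus, so members such as Calca, Chodl and Uts2 passed the filter through RVM and had to differ. Prph, the intermediate filament peripherin of motor and sensory neurons, was at 2.31, 2.05 and 9.99 FPKM in thalamus and at 121, 123 and 121 FPKM in RVM (-4.67, SE 0.47). Calca, which encodes calcitonin and the peptide CGRP, was at 0.363 to 0.496 FPKM against 17.7, 22.8 and 9.88 FPKM (-3.59, SE 0.28), and its relative Calcb differed by -2.81. Chodl, a membrane lectin of fast motor neurons, was at 0.241 to 0.337 FPKM against 12.8, 14.9 and 11.3 FPKM (-3.43, SE 0.14). RVM values of the 4 genes lay clear of all thalamus values, with Calca lowest in RVM CFA 3.

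Uts2, the precursor of urotensin II in brainstem and spinal motor neurons, was at 0 in thalamus and at 8.44, 12 and 10.7 FPKM in RVM, at least 32.6-fold higher. Its paralog Uts2b was at least 19.0-fold higher. The genes that make, load and recover acetylcholine were present in both regions: Chat differed by -1.30, the vesicular transporter Slc18a3 by -2.02 and the choline transporter Slc5a7 by -1.68. Slc18a3 was at 3.72, 3.48 and 2.08 FPKM in thalamus, which here includes the habenular genes above, and at 16.7, 18.3 and 11.6 FPKM in RVM. Ret, a receptor for glial neurotrophic factors, differed by -1.12, and that call stood only without thalamus CFA 1 (-0.87) or 3 (-1.44). The member higher in thalamus, the matrix protease gene Mmp9, was at 3.53, 0.934 and 2.01 FPKM against 0.138 to 0.176 FPKM (1.36) and was called in 1 fit of the 6, that without thalamus CFA 2 (1.67).

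Both glycine transporter genes and some glycine receptor genes were higher in RVM, while the enzymes of GABA synthesis missed the threshold. In the list of glycine and GABA genes, 5 of 13 were higher in RVM and 1 was higher in thalamus, with a median of 0.07. Besides Slc6a5, the glial glycine transporter Slc6a9 was at 33.4, 43.1 and 55.6 FPKM in thalamus and at 94.0, 101 and 97.1 FPKM in RVM (-1.16, SE 0.18), and Glra1, the adult glycine receptor subunit alpha1, was at 1.34, 2.41 and 6.54 FPKM against 24.2, 22.4 and 19.2 FPKM (-2.54, SE 0.40). Glrb, the subunit beta that glycine receptors share, differed by only -0.77 and was called without thalamus CFA 1 (-0.54) or 3 (-0.94) but in no other fit that left out 1 library, nor after total rescaling (-0.43).

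Gad1 and Gad2, the enzymes that make GABA, did not pass: Gad1 was at 26.2, 53.1 and 46.2 FPKM in thalamus and at 22.1, 23.4 and 23.4 FPKM in RVM (0.78, limma adjusted p = 0.0531). Slc32a1, the vesicular transporter for both transmitters, was at 20.1, 59.2 and 38.6 FPKM against 74.6, 82.0 and 87.3 FPKM (-1.15, adjusted p = 0.0472), called without thalamus CFA 1 (-0.75) or 2 (-1.50) only. Slc12a5, the chloride exporter KCC2 that makes GABA inhibitory, was the member higher in thalamus, at 57.8, 81.6 and 98.5 FPKM against 38.1 to 40.8 FPKM (0.96, SE 0.19). Without thalamus CFA 1, 5 members were higher in thalamus and 5 in RVM, and after total rescaling 5 and 3. Without any of the RVM libraries, 3 were higher in RVM.

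GABA-A receptor subunits were higher in thalamus in 5 of 14 and in RVM in none (median 0.56), and 3 calls held. Gabrd, the subunit delta of receptors outside synapses that carry tonic inhibition of relay cells, was at 10.4, 36.7 and 30.6 FPKM in thalamus and at 0.0619, 0.486 and 0.402 FPKM in RVM (4.19, SE 0.45). Gabra4, the subunit alpha4 that pairs with it, was at 24.0, 58.9 and 41.2 FPKM against 5.92 to 6.73 FPKM (2.43, SE 0.30). Gabrd had an RVM mean of 0.316 FPKM, so it passed the filter through thalamus and had to differ. Gabrb2 differed by 1.39 and of the 6 fits was called only without thalamus CFA 1 (1.92). The number called was 8 without thalamus CFA 1 and 3 without thalamus CFA 2 or any RVM library.

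The glutamate transporters of vesicles did not pass. Slc17a6, which loads glutamate in thalamic and brainstem neurons, was at 38.1, 120 and 120 FPKM in thalamus and at 46.4, 54.5 and 54.8 FPKM in RVM (0.66). Slc17a7, the transporter of cortical neurons, was at 225, 26.5 and 22.4 FPKM against 16.7 to 27.1 FPKM (1.16). Thalamus CFA 1 lay below the RVM values of Slc17a6 and above those of Slc17a7, and the Slc17a7 values of thalamus CFA 2 and 3 lay within the RVM range.

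Among ionotropic glutamate receptor subunits, 6 of 18 were higher in thalamus and 1 in RVM (median 0.44), and all 6 held. Gria1 and Gria2, subunits of AMPA receptors, differed by 2.06 and 1.66. Gria1 was at 75.8, 66.5 and 33.3 FPKM in thalamus and at 11.0, 12.7 and 14 FPKM in RVM. Grin2b and Grin2a, regulatory subunits of NMDA receptors, differed by 1.82 and 1.42, and Grin2b was at 5.23, 8.50 and 4.92 FPKM against 0.936 to 1.06 FPKM. Grin3b, an NMDA receptor subunit of motor neurons, was the member higher in RVM (-0.73, adjusted p = 0.0481 in limma); of the 6 fits without 1 library it was called only without thalamus CFA 1 (-0.96). Gria4, the AMPA subunit of fast synapses, did not pass (-0.40). The counts were 10 and 2 without thalamus CFA 1, and after total rescaling 12 and 0.

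Metabotropic glutamate receptors were higher in thalamus in 4 of 7 (median 1.51). Grm5, coupled to phospholipase C, was at 16.1, 30.7 and 15.3 FPKM in thalamus and at 4.24 to 5.56 FPKM in RVM, a difference of 1.80 that held. Grm2 (2.34) and Grm7 (0.86), which inhibit release, were also higher. Both calls were lost without RVM CFA 3 (2.47 and 0.85), which left 2 called members, and that of Grm2 also without thalamus CFA 2 (1.99) or RVM CFA 2 (2.03).

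Receptors for serotonin, noradrenaline and acetylcholine split by gene, with 7 of 23 higher in thalamus and 4 in RVM (median 0.26). Chrm3, a muscarinic receptor, was at 9.03, 13.3 and 12.3 FPKM in thalamus and at 2.69 to 2.80 FPKM in RVM (1.73, SE 0.15). Htr2a, an excitatory serotonin receptor, was at 1.17, 1.76 and 2.03 FPKM against 6.34, 6.15 and 6.50 FPKM (-1.48, SE 0.15), and Htr5b, a serotonin receptor of habenula and raphe, at 4.41, 2.39 and 2.44 FPKM against 18.4, 22.7 and 28.8 FPKM (-2.59, SE 0.24). No value of these 3 genes overlapped between the regions. Chrnb2, the common nicotinic subunit of brain, differed by 1.37, and of the 6 fits was called only without thalamus CFA 1 (1.83). Of the 11 calls in the list, 3 higher in thalamus and 2 higher in RVM held. The counts were 11 and 6 without thalamus CFA 1, 6 and 6 without thalamus CFA 3, 4 and 2 without RVM CFA 1, 5 and 2 without RVM CFA 2, and 3 and 3 without RVM CFA 3.

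Among opioid genes, the enkephalin precursor Penk stood apart. It was at 7.51, 23.3 and 10.9 FPKM in thalamus and at 142, 148 and 165 FPKM in RVM, a difference of -3.50 (SE 0.36, limma adjusted p = 0.00155) that held. The receptors were at low levels. Oprm1, the mu receptor, was at 1.15, 3.64 and 2.61 FPKM in thalamus and at 0.419, 0.606 and 0.374 FPKM in RVM (1.18), and of the 6 fits was called only without thalamus CFA 1 (1.49). Oprd1, the delta receptor, was at 0.332 to 1.10 FPKM against 1.45, 2.42 and 2.58 FPKM (-0.89), called without thalamus CFA 3 (-1.06) or RVM CFA 1 (-1.07) only. Oprk1 and Oprl1, the kappa and nociceptin receptors, had differences of 0.11 and 0.01, and the precursors Pnoc and Pdyn of -0.22 and -0.63, none of which passed. In the list of 8, 1 was higher in thalamus and 3 in RVM, and Penk alone held. It was the only member called without thalamus CFA 2, RVM CFA 2 or RVM CFA 3.

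Other neuropeptides and their receptors went both ways, with 7 of 32 higher in thalamus and 9 in RVM. Their median of -0.17 turned to 0.16 after total rescaling, while 6 calls in each direction held. Crh, which encodes corticotropin-releasing hormone and is made in the inferior olive and other medullary cells, was at 1.06, 0.590 and 0.302 FPKM in thalamus and at 46.9, 54.9 and 52.0 FPKM in RVM (-5.01, SE 0.18). Its binding protein gene Crhbp differed by -3.33. Crh had a thalamus mean of 0.650 FPKM, so it passed the filter through RVM and had to differ. Trh, the thyrotropin-releasing hormone precursor that raphe neurons co-release with serotonin, was at 4.24, 0.677 and 3.38 FPKM against 136, 64.8 and 122 FPKM (-4.94, SE 0.48). Cartpt, a peptide precursor, was at 4.73 to 6.45 FPKM against 34.7, 40.8 and 39.0 FPKM (-2.62, SE 0.13).

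On the other side, Cck, the cholecystokinin precursor of thalamic and cortical neurons, was at 60.5, 196 and 191 FPKM in thalamus and at 21.3, 20.8 and 27.3 FPKM in RVM (2.47, SE 0.45). Cbln2, a synapse organiser, was at 26.6, 33.8 and 50.7 FPKM against 9.49 to 10.4 FPKM (1.73), and the neuropeptide Y receptor gene Npy1r differed by 1.48. Tac1, the substance P precursor, was at 31.7, 25.6 and 42.9 FPKM in thalamus and at 44.7 to 49.7 FPKM in RVM (-0.52, adjusted p = 0.0693 in limma). Sst, the somatostatin precursor, was at 65.9, 165 and 47.5 FPKM against 131 to 154 FPKM (-0.82) and did not pass either.

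Among channels of neuronal excitability, the HCN, sodium and calcium channels were mostly higher in thalamus. Of 29 HCN, sodium and calcium channel genes, 20 were higher there and 2 in RVM (median 1.02), and 14 and 1 of these held. Cacna1e and Cacna1c, pore subunits of R-type and L-type calcium channels, differed by 1.89 and 1.54, and Scn2a, a sodium channel of axons, was at 23.7, 33.5 and 30.2 FPKM in thalamus and at 7.93 to 10.6 FPKM in RVM (1.52, SE 0.16). Cacna2d1, the calcium channel subunit that gabapentinoids bind, was at 14.2, 13.3 and 13 FPKM against 5.10, 7.03 and 6.51 FPKM (1.02, SE 0.12). Cacna1g, the T-type calcium channel behind burst firing of relay cells, was at 8.39, 25.7 and 22.6 FPKM against 4.09 to 5.25 FPKM (1.65), and Hcn4, a pacemaker channel, at 3.29, 9.86 and 8.61 FPKM against 1.99 to 2.06 FPKM (1.34). Both of these were called only without thalamus CFA 1 among the 6 fits (2.12 and 1.76).

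The 2 members higher in RVM were Scn4b and Hcn2. Scn4b, a sodium channel subunit that aids resurgent current in fast-firing neurons, was at 8.35, 9.92 and 28.2 FPKM in thalamus and at 73.2, 81.1 and 77.3 FPKM in RVM (-2.44, SE 0.41). Hcn2, another pacemaker channel, was at 42.4, 65.4 and 99.6 FPKM against 158, 153 and 162 FPKM (-1.26) and was called without thalamus CFA 1 (-0.96) or 3 (-1.56) only. Thalamus CFA 3 was the highest thalamus library for both called genes and the nearest to RVM, and without thalamus CFA 1 and 2 together their differences were -1.42 and -0.66.

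Potassium channel genes were higher in thalamus in 12 of 34 and in RVM in 4 (median 0.18), and 7 and 2 calls held. Kcnma1, the pore of the large calcium-activated channel, was at 18.3, 21.1 and 14.7 FPKM in thalamus and at 3.64 to 4.01 FPKM in RVM (1.97, SE 0.14), and its neuronal partner Kcnmb4 at 29.3 to 33.5 FPKM against 6.90 to 9.65 FPKM (1.77, SE 0.14). Kcnd3, an A-type channel, differed by 1.16. Kcnj10, the inward rectifier with which astrocytes clear potassium, was higher in RVM, at 49.0, 56.8 and 74.2 FPKM in thalamus and 134, 131 and 104 FPKM in RVM (-1.03, SE 0.18). Kcnc2, of fast-spiking cells, was called without thalamus CFA 1 only (1.62 with it and 2.24 without). The number higher in thalamus was 7 without RVM CFA 1 or 3, and the number higher in RVM was 8 without thalamus CFA 3 and 2 without any of the RVM libraries.

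Calcium-binding protein genes were called in 3 of 15 for thalamus and in 6 for RVM, and all 9 held. The list's median of -0.10 turned to 0.25 after total rescaling. Hpcal4, a neuronal calcium sensor, was at 87.2, 78.6 and 52.7 FPKM in thalamus and at 10.5 to 12.8 FPKM in RVM (2.48, SE 0.19). Pvalb, the parvalbumin gene of fast-firing neurons, was at 28.7, 13.7 and 64.5 FPKM against 169, 163 and 156 FPKM (-2.42, SE 0.49), and Cabp1, a calcium channel modulator, at 6.87 to 20.1 FPKM against 71.1 to 71.8 FPKM (-2.27, SE 0.37). Thalamus libraries differed more among themselves in both than did RVM libraries, and without thalamus CFA 1 and 2 together the difference of Pvalb was -1.32. Calb1 and Calb2, for calbindin and calretinin, did not pass (0.18 and -0.08).

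Axonal structure leaned to RVM, where 8 of 15 neurofilament and axonal genes were higher and none were higher in thalamus (median -0.57, 6 held). After total rescaling 6 were higher in RVM and 2 in thalamus. The neurofilament genes Nefl, Nefm and Nefh, which set the calibre of long myelinated axons, differed by -2.20, -3.20 and -3.04. Nefm was at 59.1, 68.9 and 119 FPKM in thalamus and at 751, 760 and 684 FPKM in RVM. Sncg, the gamma-synuclein gene of motor and monoamine neurons, was at 112, 111 and 68.5 FPKM against 528, 522 and 508 FPKM (-2.44, SE 0.19). Gap43, the growth-cone protein gene, had wide thalamus values of 118, 278 and 273 FPKM against 179 to 203 FPKM and did not pass (0.12).

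Axon guidance genes leaned the other way, with 16 of 33 higher in thalamus and 2 in RVM (median 0.65), of which 11 and 1 held. Epha4, Epha7 and Epha8, ephrin receptors that sort axons by repulsion, differed by 1.94, 2.01 and 2.26. Epha4 was at 30.6, 28.0 and 23.9 FPKM in thalamus and at 6.26 to 6.65 FPKM in RVM. The ligand gene Efnb3 and the repellent gene Slit1 differed by 2.04 and 1.96. Sema3a, a repellent semaphorin, was higher in RVM, at 0.142 to 0.513 FPKM against 4.0, 3.82 and 3.62 FPKM (-1.81, SE 0.17). Ntng1, a netrin-G1 of thalamic axons, was at 12.8, 49.0 and 42.8 FPKM against 4.93 to 6.74 FPKM (2.19), and its call was lost without RVM CFA 1 (2.08) or 3 (2.20).

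Myelin genes were higher in RVM in all 17 tested, with a median of -1.36, and 15 held. Mbp, the myelin basic protein gene, was at 2429, 2024 and 2244 FPKM in thalamus and at 8708, 8776 and 8637 FPKM in RVM, a ratio of mean levels of 3.90 (-1.97, SE 0.12, limma adjusted p = 0.000379). Ugt8, which makes the galactolipids of myelin, was at 60.5 to 64.3 FPKM against 245, 271 and 246 FPKM (-2.0, SE 0.08). Both were steady, with each region's 3 libraries close together. Gjb1, the connexin of oligodendrocytes, Ermn, Mobp, Mog, Cnp and Mag followed at -2.11, -2.03, -1.69, -1.48, -1.41 and -1.15. After total rescaling 15 of the 17 were called. Quantile normalization gave Mbp a difference of -1.25, which was called.

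Precursor and astrocyte genes gave no single direction. Of 9 oligodendrocyte precursor genes, 3 were higher in thalamus and 4 in RVM: C1ql1, a complement-like ligand that olivary neurons and precursors secrete, was at 21.2, 16.3 and 17.4 FPKM in thalamus and at 167, 193 and 239 FPKM in RVM (-3.37, SE 0.16), and Olig2, the lineage factor, differed by -0.69 (-0.35 and not called after total rescaling). Without thalamus CFA 1 or any of the RVM libraries, 1 precursor gene was higher in thalamus. Of 14 general astrocyte genes, 2 were higher in thalamus and 6 in RVM, and their median of -0.21 turned to 0.11 after total rescaling, which called 4 and 2. Without thalamus CFA 2 or any of the RVM libraries, 3 were higher in RVM. S100b and Aldoc, a calcium-binding protein and a glycolytic enzyme of astrocytes, differed by -1.39 and -1.30, and the water channel gene Aqp4 by -0.58 (-0.24 and not called after total rescaling). Slc1a3, the glutamate transporter GLAST, was at 159, 216 and 140 FPKM against 101 to 109 FPKM (0.68), a call that was lost without any of the RVM libraries (0.65 to 0.70).

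The 13 genes of the mitochondrial genome were higher in RVM in 11, with a median of -0.87, and 8 held. COX1, a core subunit of cytochrome oxidase, was at 11172, 12390 and 14123 FPKM in thalamus and at 23117, 24495 and 21205 FPKM in RVM (-0.87, SE 0.16, limma adjusted p = 0.00950). ND2, a subunit of complex I, was at 3884, 4455 and 4614 FPKM against 10091, 10287 and 9499 FPKM (-1.21, SE 0.13). Reads of the mitochondrial genome were 6.95% to 8.28% of all reads in thalamus and 10.72% to 12.58% in RVM. After quantile normalization 3 members were called, the median was -0.08, ND2 differed by -0.43 and COX1 by 0.02, and without thalamus CFA 1 and 2 together 3 were called with a median of -0.70. With no filter on low levels 2 were called, with the median still at -0.87.

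**Figure D3:**
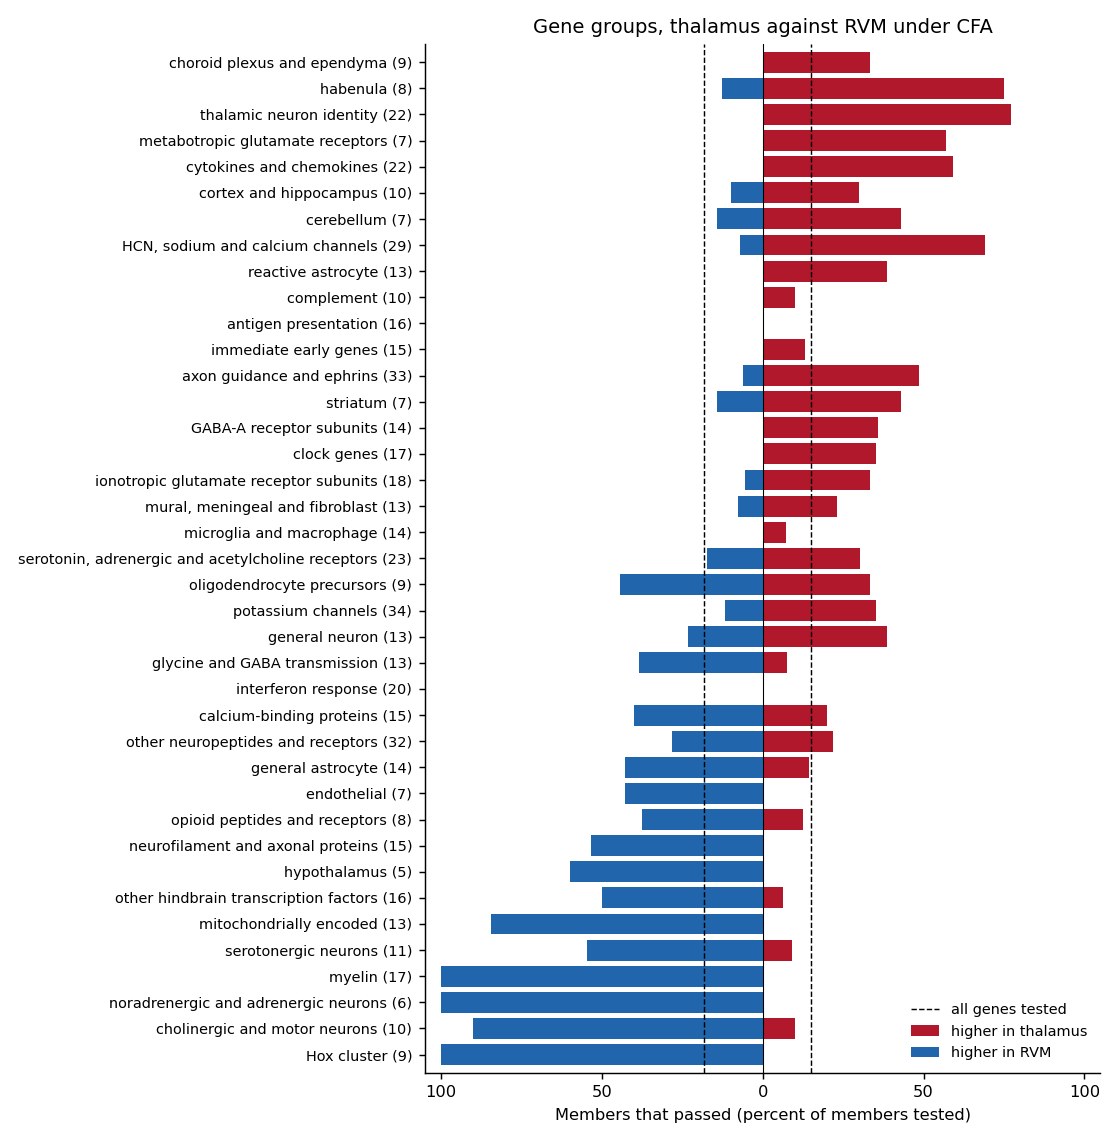
Percent of each group's tested members that were higher in thalamus (red, right) or in RVM (blue, left) under CFA, with the number tested in parentheses and the groups ordered by median difference. Dashed lines mark the shares over all genes tested, 14.9% and 18.1%. Hox, myelin and noradrenergic genes reach 100% on the RVM side and no group does on the thalamic side. None of the 9 Hox genes and only 3 of the 6 noradrenergic genes reached a mean of 1 FPKM in thalamus. The others passed the filter through RVM and had to differ.

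Chemokine and cytokine genes were higher in thalamus in 13 of 22 and in RVM in none, with a median of 1.32. Of the 22, 17 reached a mean of 1 FPKM in RVM as well, and 6 calls held. Il1rn, the interleukin 1 receptor antagonist, was at 16.9, 9.72 and 14.4 FPKM in thalamus and at 2.80, 0.640 and 2.0 FPKM in RVM (2.44, SE 0.34, limma adjusted p = 0.00391). Ccl2, which draws monocytes, was at 23.8, 18.3 and 6.63 FPKM against 2.92, 0.522 and 2.08 FPKM (2.54, SE 0.52), and Cxcl9, which draws T cells, at 6.36 to 7.79 FPKM against 2.07, 0.399 and 1.72 FPKM (1.79, SE 0.30). RVM CFA 2 was the lowest library for all 3. Il1b, the cytokine interleukin 1 beta, and Icam1, an adhesion molecule for leukocytes, differed by 1.91 and 1.18 and held.

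The count depended on single libraries. It was 9 with a median of 0.96 without RVM CFA 2, 7 without RVM CFA 3, 8 without thalamus CFA 1, 9 without any of the other libraries and 4 without thalamus CFA 1 and 2 together. Ccl2 (1.53), Cxcl9 (1.73) and Icam1 (0.97) were not called in that last setting, which leaves 1 thalamus library. In an alternative added after the data were seen, without thalamus CFA 1 and RVM CFA 2, it was 8 with a median of 0.83. The part that choroid plexus and other neighbouring tissue in thalamus CFA 1 and 2 had in these values was not tested.

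Phagocyte genes with the same order were Lyz2, Gpnmb and Cst7. Lyz2, the lysozyme of macrophages and microglia, was at 584, 620 and 534 FPKM in thalamus and at 143, 50.4 and 170 FPKM in RVM (2.42, SE 0.43), and it was the only 1 of 14 microglia and macrophage genes that passed. Without RVM CFA 1 or 2 a further member passed, and without thalamus CFA 1 and 2 together none did, with Lyz2 at 2.31. Gpnmb, a glycoprotein of lipid-laden phagocytes, was at 98.2, 54.1 and 87.2 FPKM against 14.2, 4.01 and 11.7 FPKM (2.98, SE 0.44). Aif1 and Cx3cr1, markers that all microglia share, had differences of 0.33 and 0.20 and did not pass: Aif1 was at 42.1, 33.2 and 34.2 FPKM in thalamus and at 56.0, 12.9 and 32.2 FPKM in RVM. The microglial median of 0.36 was -0.04 without RVM CFA 2.

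Antigen presentation and interferon genes gave no call, and complement genes gave 1. None of 16 antigen presentation genes passed, and their median of 0.71 was -0.05 without RVM CFA 2. Cd74 was at 595, 772 and 653 FPKM in thalamus, between the RVM values of 73.6 and 1108 FPKM. Of 10 complement genes, C1r passed (1.37), and the list's median of 0.75 was 0.11 without RVM CFA 2. None of 20 interferon response genes passed, while without RVM CFA 2 there were 2 higher in RVM and the median was -0.30. C1r was at 27.9, 22.1 and 15.1 FPKM against 9.17, 4.46 and 10.1 FPKM, and it missed the threshold without thalamus CFA 2 (1.34).

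Among reactive astrocyte genes, 5 of 13 were higher in thalamus (median 0.96). Serpina3n and Steap4, a secreted protease inhibitor and a metalloreductase, were at 3.80, 3.32 and 8.65 FPKM and at 5.88, 8.34 and 7.23 FPKM in thalamus, against 0.163 to 1.33 and 0.641 to 2.42 FPKM in RVM, with differences of 1.91 and 1.70 that held. The other 3 calls were lost in fits without 1 library. The number called was 2 without any of the RVM libraries, 3 without thalamus CFA 2 and 1 without thalamus CFA 1 and 2 together, where Steap4 (1.73) was not called. In RVM, 2 members were higher without thalamus CFA 1. Gfap, the intermediate filament of astrocytes, was at 936, 455 and 364 FPKM in thalamus and at 1004, 602 and 884 FPKM in RVM (-0.59) and did not pass. Lcn2, an iron-binding protein released in inflammation, was at 264, 320 and 372 FPKM against 583, 12.8 and 369 FPKM (1.14) and did not pass either, with RVM CFA 2 lowest of all.

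Choroid plexus and ependymal genes were higher in thalamus in 3 of 9, with a median of 3.39. Without thalamus CFA 1 and 2 the median was 1.21, over 5 genes tested. Ttr, the transthyretin that choroid plexus secretes, was at 9934, 2361 and 5.50 FPKM in thalamus and at 0.388 to 4.03 FPKM in RVM, and its spread kept it from passing (limma adjusted p = 0.0637). Folr1, a folate receptor, was at 83.0, 30.0 and 4.69 FPKM against 0.173 to 1.12 FPKM (4.09). That call was lost without thalamus CFA 2 (3.92), RVM CFA 2 (3.96) or RVM CFA 3 (3.94), and without thalamus CFA 1 and 2 together the difference was 1.98. Only 2 of the 9 reached a mean of 1 FPKM in RVM. The number tested changed with the fit. Without thalamus CFA 3, 10 of 10 tested were called. Without thalamus CFA 2, 1 of 9 was called, and without RVM CFA 2 or RVM CFA 3, 1 of 10. Collagen genes Col1a1 and Col3a1, of meninges and vessels, differed by 2.48 and 2.74. Col3a1 was at 63.8, 8.25 and 28.0 FPKM against 2.0 to 3.46 FPKM, and both calls were lost without any of the RVM libraries, where Col1a1 differed by 2.41 to 2.56 and Col3a1 by 2.55 to 2.84. The call of Col3a1 was also lost without thalamus CFA 3 (2.66).

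**Figure D4:**
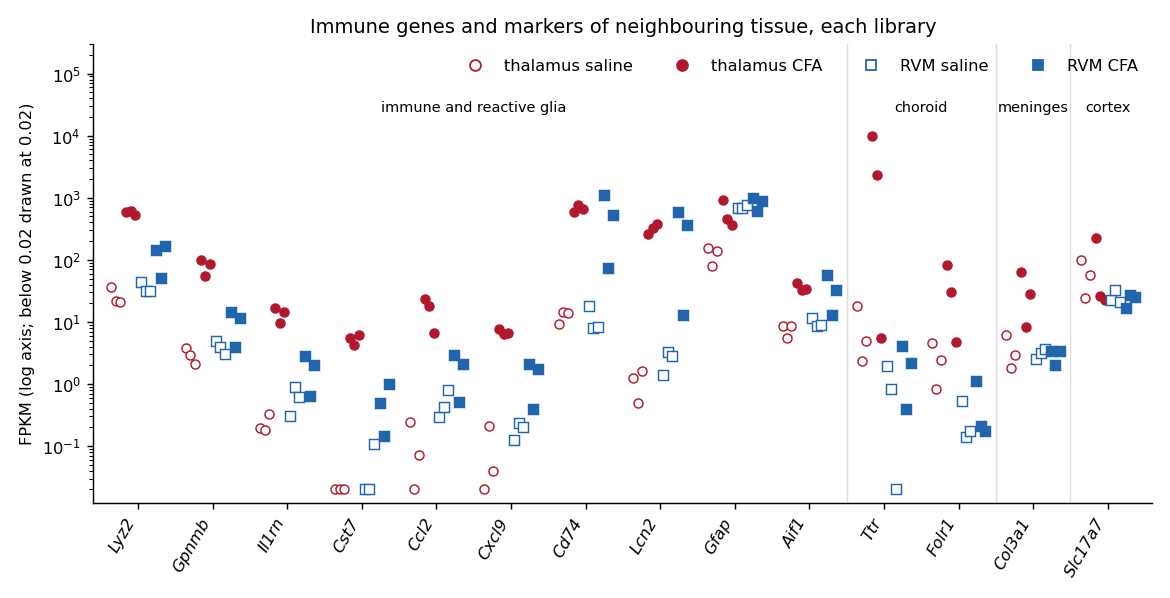
FPKM on a log axis for immune genes and markers of choroid plexus, meninges and cortex in all 12 libraries, with circles for thalamus, squares for RVM, filled symbols for CFA and open symbols for saline. Lyz2, Gpnmb, Il1rn, Ccl2 and Cxcl9 sit higher in thalamus CFA than in RVM CFA, Cd74 and Lcn2 overlap, and Ttr spreads from 5.50 to 9934 FPKM in thalamus CFA.

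Clock genes, which keep daily rhythms, were higher in thalamus in 6 of 17 and in RVM in none (median 0.46), and 4 held. Hlf, Nr1d1 and Per2 differed by 1.72, 1.0 and 0.75, and Nr1d1 was at 15.7, 21.6 and 23.1 FPKM in thalamus and at 8.88 to 9.95 FPKM in RVM. The count was 12 without thalamus CFA 1 and 16 after total rescaling. Of 15 immediate early genes, which neurons switch on with activity, Egr1 and Nr4a2 were higher in thalamus (1.59 and 1.76). Nr4a2 held, while Egr1 was called without thalamus CFA 1 (1.33) or 3 (2.06) only, and Fos and Arc did not pass (0.67 and 1.08). The count was 9 without thalamus CFA 3 and 1 without thalamus CFA 2, RVM CFA 1 or RVM CFA 2. The difference of Egr1 was 0.65 without thalamus CFA 1 and 2 together. The hour at which tissue was taken is not in the labels.

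The same region comparison in saline rats, on other libraries, called 3250 genes higher in thalamus (22.6%) and 3273 higher in RVM (22.7%) of 14396 tested. After total rescaling the counts were 4559 and 2013. Among 14088 genes tested in both, 4720 were called under CFA and 6436 under saline. Both calls, with the same direction, were made for 3757 genes, 79.6% of the CFA calls and 58.4% of the saline calls. The Pearson correlation of the differences over these genes was 0.831, a description across genes, which are not independent replicates. Of the 1180 CFA calls beyond 1 among genes tested in both, 1150 (97.5%) had the same sign under saline. That share leaves out the 699 genes tested under CFA and not under saline. Of these, 145 were called higher in thalamus and 15 higher in RVM under CFA.

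Many identity genes had differences of like size in both. Slc6a5 differed by -5.47 under CFA and -5.22 under saline, Hoxb2 by -3.97 and -4.11, Lhx9 by 3.78 and 3.85, and Mobp by -1.69 and -1.84. Other members varied more: Uts2 was at 1.83, 15.7 and 4.03 FPKM in the RVM of saline rats, and Gpr151 at 28.8, 1.34 and 27.6 FPKM in their thalamus. Thalamic identity genes had a median difference of 2.41 under CFA and 3.22 under saline. The CFA median was 2.76 without thalamus CFA 1, the library with low thalamic markers described above. The part of that library in the gap between CFA and saline was not tested.

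The 6 genes called in opposite directions, Mmp14, Tgfbi, Cxcl16, Ctsc, Cd44 and Cmtm3, were higher in thalamus under CFA and higher in RVM under saline. Cxcl16, a chemokine with a membrane-bound form, was at 35.3, 31.1 and 19.5 FPKM in thalamus and at 13.7, 4.66 and 13 FPKM in RVM under CFA, and at 2.06 to 2.78 and 4.02 to 4.88 FPKM under saline. The CFA call of Cxcl16 was made in 3 of the 6 fits without 1 library, those without thalamus CFA 3 (1.70), RVM CFA 1 (1.70) and RVM CFA 2 (1.01).

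**Figure D5:**
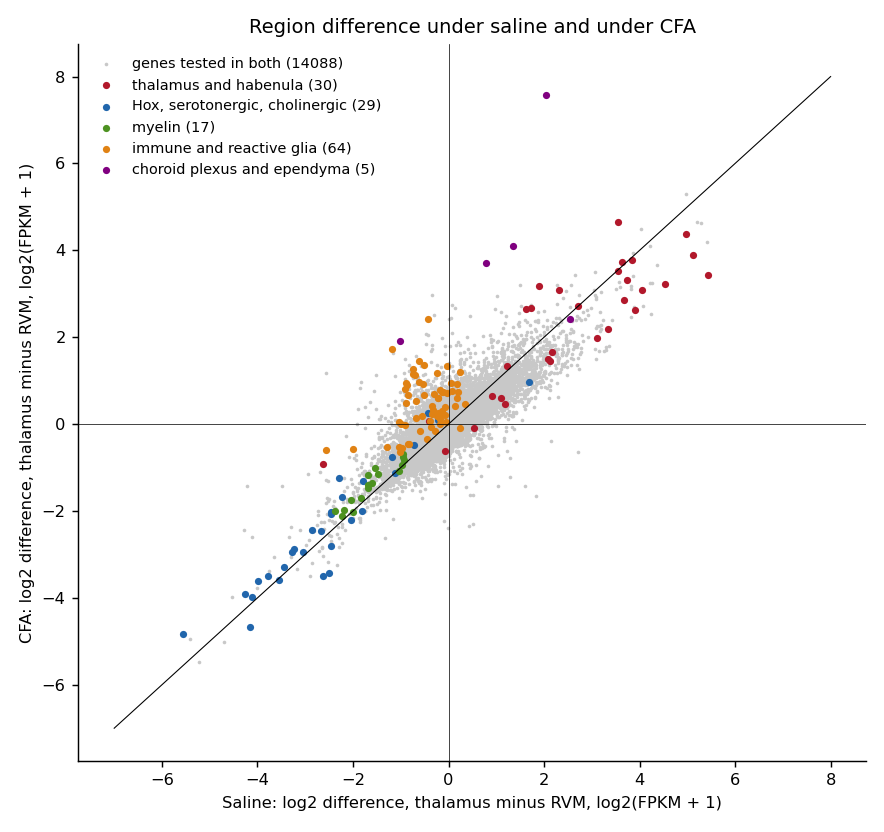
Thalamus minus RVM difference on the log2(FPKM + 1) scale under saline (x axis) and under CFA (y axis) for the 14088 genes tested in both, with gene groups coloured and the line of equality drawn. Most genes follow the line, and many immune, reactive glial and choroid plexus genes lie above it.

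The difference between the CFA and saline region differences was tested as an interaction in a model of all 12 libraries. None of 14671 genes passed (0%, limma, smallest adjusted p = 0.216), and voom on the recovered reads also called 0. The count was 13 without thalamus CFA 3, 12 without thalamus saline 1, 8 without thalamus CFA 2 and 1 without RVM CFA 2. It was 0 without each of the other libraries and 11 with no filter on low levels. At an unadjusted p below 0.05 there were 1688 genes (11.5%). The smallest p was that of Cst7, a cystatin of activated microglia. It was at 5.59, 4.23 and 6.07 FPKM in thalamus CFA, at 0.486, 0.143 and 1.0 FPKM in RVM CFA and at 0 in 5 of the 6 saline libraries (difference of differences 2.10, SE 0.30, unadjusted p = 2.34e-05).

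Il1rn (2.80), the lipopolysaccharide co-receptor gene Cd14 (2.13), the inhibitory myeloid receptor gene Lilrb4 (2.96), Gpnmb (3.32) and the protease inhibitor gene Slpi (2.72) followed on the side more positive under CFA. Gpnmb was at 2.07 to 3.86 FPKM in thalamus and 3.06 to 4.90 FPKM in RVM under saline. On the other side stood Etv5, an ETS factor (-0.95), Camk2n1, an inhibitor of the calcium/calmodulin kinase (-0.85), and Nsmf, a messenger from synapse to nucleus (-0.89). Camk2n1 was at 432, 468 and 510 FPKM in thalamus CFA and at 757, 970 and 661 FPKM in thalamus saline, with 216 to 258 FPKM in all RVM libraries. Of 21 cytokine and chemokine genes, 14 lay below an unadjusted p of 0.05, as did 11 of 12 reactive astrocyte genes, 12 of 13 mitochondrial genes and 0 of 17 myelin genes, and none of these passed the adjusted test. Only 9 of the cytokine and chemokine genes and 9 of the reactive astrocyte genes reached the filter in the saline libraries, so the others entered through the CFA libraries, where they are high.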

How the data were processed

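The authors deposited FPKM values per gene and library, with gene lengths; libraries came from total RNA with an Illumina TruSeq kit, per the labels' protocols. Aligner, counter and genome build were not given in the sources used here, nor whether strand was kept, so reads of overlapping or antisense genes cannot be told apart. FPKM times gene length fell on steps, from which whole reads were recovered for 100% of values (tolerance 0.01), 14978698 to 19243108 in each CFA library; 3 reads there are 0.156 to 0.200 CPM. FPKM totals were 444470 to 464865 in thalamus CFA and 562774 to 595130 in RVM CFA. The library totals that the authors' scaling implies were 1.109 to 1.168 times the recovered reads in thalamus CFA. In RVM CFA they were 0.9547 to 0.9893 times the recovered reads. The sources do not state this scaling, and its part in the region differences was not tested.

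Genes whose mean over the 6 libraries reached 1 FPKM were tested with limma 3.58.1 (R 4.3.3) on log2(FPKM + 1), with an intensity trend and Benjamini-Hochberg adjustment at 0.05. The saline comparison used its own 6 libraries, and the interaction all 12. The fits were also run on simulated reads that had the same dispersion for every gene and library. That setting does not copy the unequal spread of these libraries. Tables and figures used Python 3.11.15, pandas 2.3.3, numpy 2.4.6 and matplotlib 3.10.9. Promoters came from RefSeq (GRCr8), matched by symbol. A fold against a group at 0 took 3 reads per library as its floor. Alternatives were another pseudocount, other filters, scalings, limma settings, voom on recovered reads, a replicate block and fits without libraries.

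The comparison and the 43 gene lists (667 symbols, 656 matched) were chosen with earlier results of these data known. Genes named were the 15 with the largest difference in each direction among called genes whose libraries did not overlap, the 10 called genes of highest mean level in each direction, and the 8 with the smallest interaction p in each direction. From each list came up to 5 called members in each direction and up to 3 uncalled members of highest level, or any member of lists with at most 15 measured. Named outside this rule, after their values were seen, were Zic1, Zic4, Gbx2, Rgs16, Ptpn3, Synpo2, Lef1, Rora, Hoxb6, Hoxb8, Hoxa2, Hoxd1, Hoxd3, Hoxd4, Uts2b, Cartpt, Tac1, Cacna2d1, Hcn4, Kcnd3, Epha4, Mobp, Mog, Cnp, Mag, Cxcl9, Il1b, Icam1, Fos, Arc, Anxa9, Tm4sf4, C1rl, Myl4, Mmp14, Tgfbi, Cxcl16, Ctsc and Cmtm3. Some members are not reported here.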

Additional observations from a re-analysis of the deposited data

How the results depend on the processing

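With every library rescaled to the same FPKM total, 5083 genes were higher in thalamus and 1025 in RVM under CFA, and 2013 were higher in RVM under saline. Leaving out 1 library gave 1286 to 2560 genes higher in thalamus and 1563 to 2858 higher in RVM under CFA, and 0 to 13 interaction calls. Under saline it gave 2451 to 3558 and 2386 to 3596, or 4855 to 7154 in all. Without thalamus CFA 1 and 2 together, 1738 genes were higher in RVM. The interaction called 11 genes with no filter. Of the genes named in the text that passed, COX1 and Cst3 reversed under quantile normalization, to 0.02 and 0.41. The cause was not tested. The other settings tried (a pseudocount of 0.1, no filter, a filter at 5 FPKM, quantile normalization, library quality weights, median-of-ratios scaling, voom, robust empirical Bayes and all 12 libraries in a single model) gave 1513 to 2937 genes higher in thalamus and 2452 to 3311 higher in RVM. Without thalamus CFA 1 and RVM CFA 2, chosen after seeing the data, the counts were 2061 and 2090.

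The labels do not say whether same-numbered thalamus and RVM libraries came from the same animal. Deviations of same-numbered libraries correlated at 0.20, 0.07 and -0.03, and those of other pairs at -0.19 to 0.16. With 3 libraries in each group, these values cannot decide it. The replicate block gave 2007 and 2373 calls under CFA, 5765 under saline and 0 for the interaction. Of 168 named genes that passed under CFA, 119 passed in every alternative. A group had 3 libraries, and leaving out thalamus CFA 1 and 2 assumes that the lone library varies like those of RVM. A level under 3 reads was not distinguished from 0.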

Other observations

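Cpe, Ncdn, Nsg2 and Vamp2 were among the 10 genes higher in thalamus with the highest levels. Cpe, the carboxypeptidase E that trims neuropeptide precursors, was at 614, 738 and 679 FPKM in thalamus CFA and at 372, 378 and 393 FPKM in RVM CFA (0.82, SE 0.10). Ncdn, the neuronal protein neurochondrin, was at 476, 688 and 509 FPKM against 159, 184 and 190 FPKM (1.63, SE 0.16). Nsg2, an endosomal protein of neurons, and Vamp2, the synaptobrevin of synaptic vesicles, were higher by 1.32 and 1.08. The regions did not overlap for any of these 4 genes, and each call held in all 6 fits without 1 library (limma adjusted p = 0.00207, 0.00134, 0.000496 and 0.00339). Cst3, the protease inhibitor cystatin C of glia, was higher in RVM, at 3347, 3662 and 3509 FPKM in thalamus and 6538, 4760 and 5093 FPKM in RVM (-0.63). Quantile normalization gave it a difference of 0.41, and it was called in 3 of the 6 fits without 1 library.

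By the transcription factor families that the deposited table names, Homeobox genes were higher in thalamus in 12 of 61 and in RVM in 24, which include the 9 Hox genes that passed the filter through RVM. Fork_head genes were higher in thalamus in 8 of 17 and in RVM in 2 (median 0.49). Zinc finger genes of the zf-C2H2 family were higher in thalamus in 55 of 352 and in RVM in 15 (median 0.11). The shares over all genes were 14.9% and 18.1%. By RNA class, lincRNA genes were called in 24 and 18 of 159, processed transcripts in 13 and 2 of 44 (median 0.32), and processed pseudogenes in 4 and 15 of 97 (median -0.31). Reads of pseudogenes can be shared with their parent genes, and the part of such sharing was not tested. Genes of miRNA hairpins were called in 13 and 9 of 120.

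Markers of neighbouring regions and other cells gave the following counts, higher in thalamus first. Cortical and hippocampal genes were called in 3 and 1 of 10 (median 1.21), striatal genes in 3 and 1 of 7, cerebellar genes in 3 and 1 of 7, and hypothalamic genes in 0 and 3 of 5. Schwann cell genes were called in 0 and 3 of 4, mural, meningeal and fibroblast genes in 3 and 1 of 13, blood genes in 0 and 0 of 4, general neuronal genes in 5 and 3 of 13, and retinal genes in 1 and 0 of 2. Endothelial genes were called in 0 and 3 of 7, and their median of -0.25 was 0.07 after total rescaling. The interferon median of -0.00 was 0.30 after total rescaling. Several of these counts rested on single libraries. Mural, meningeal and fibroblast genes gave 0 higher in thalamus without any of the RVM libraries and 3 higher in RVM without thalamus CFA 1. Hypothalamic genes gave 1 higher in RVM without any of the RVM libraries, and endothelial genes 1 without thalamus CFA 2, RVM CFA 2 or RVM CFA 3. Cortical and hippocampal genes gave 5 higher in thalamus without thalamus CFA 3 and 3 higher in RVM without thalamus CFA 1. Striatal genes gave 2 higher in RVM without thalamus CFA 3. The retinal call was lost without thalamus CFA 2 or any of the RVM libraries.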
